A study of Mus musculus with 12 samples.

Results

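The 58 genes described here encode the folding, quality control and export machinery of the endoplasmic reticulum (ER), the membrane compartment in which secreted and membrane proteins are made, together with the sensors and transcription factors of its stress response. They were taken by name: every probe whose gene name was 1 of the 58 was read in all 4 groups of arrays. All 58 names were found among the 34836 gene names of the array, with 81 probes, and all 58 had a probe that passed the filter on dim signals, as did 18991 names in all. The brightest such probe of each gene was well above background on 12 of 12 arrays.

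The cells were mouse embryonic stem (ES) cells of the line EB3 in which 1 or both copies of Sox7, the gene of an endoderm transcription factor, had been disrupted. All of them carried Gata6GR, a fusion of the transcription factor Gata6 with the ligand-binding part of the glucocorticoid receptor, expressed from a constitutive promoter in every group, so that dexamethasone (Dex) switches Gata6 on and drives the cells towards extraembryonic endoderm (XEN)-like cells. RNA was taken at day 4 from Sox7 (+/−) cells without Dex (ES cells), Sox7 (+/−) cells with Dex (XEN-like cells), Sox7 (−/−) cells without Dex and Sox7 (−/−) cells with Dex, with 3 one-colour Agilent arrays for each group. The Sox7 (+/−) cells came from 1 clone and the Sox7 (−/−) cells from that clone by selection, so a difference between the genotypes is a difference between these lines. Wild-type cells, and Dex-treated cells without Gata6GR, were not analysed here.

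Proteins enter the ER through the Sec61 channel, lose their signal peptide, are glycosylated and are folded by chaperones and by disulfide isomerases. Proteins that fail to fold are pulled back to the cytosol and degraded, and folded cargo leaves in vesicles with a COPII coat. When unfolded protein accumulates, 3 membrane sensors (Ern1, also called Ire1; Eif2ak3, also called Perk; and Atf6) raise the transcription of this machinery through Xbp1, Atf4 and the cleaved form of Atf6. Parietal endoderm, to which XEN-like cells are related, is known for secreting the laminins and type IV collagen of a thick basement membrane.

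The promoters of some of these genes carry the classical ER stress response element (ERSE), spelled CCAAT, 9 bases of any kind and CCACG, to which Atf6 binds together with the CCAAT-binding factor NF-Y. Promoter windows of 300 bases, from 250 bases before to 50 after the gene's start, were given by RefSeq on build GRCm38.p6 for 48 of the 58 genes. Searched on both strands, an ERSE was present in 10 of these 48 (20.8%), against 0.137% of all 27025 genes with a window. A second form, ERSE-II, spelled ATTGG, 1 base and CCACG, was present in 2 (4.17%, against 0.0444%), and the unfolded protein response element (UPRE), spelled TGACGTGG, in 3 (6.25%, against 0.714%). The CCAAT box alone, which is part of the ERSE, was present in 31 of 48 (64.6%, against 41.1%). These are matches of letters and not shown sites. The genes were taken by name for their roles in ER folding and its stress response, so the excess describes the list and is no result of these arrays. The stretches before the gene's start that hold such an element are printed here 5′ to 3′ on the strand of the gene, with up to 20 bases on either side, because the elements were more frequent here than among all genes, although 15 of the 48 windows held any of the 3. Capitals mark the fixed bases of the ERSE or ERSE-II and the whole UPRE. Where CGTGG comes first and ATTGG last, the ERSE is on the opposite strand, as is the UPRE where it reads CCACGTCA.
Hspa5 (chr2:34772005-34772063, plus strand): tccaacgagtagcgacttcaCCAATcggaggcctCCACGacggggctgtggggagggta
Hsp90b1 (chr10:86705513-86705676, minus strand): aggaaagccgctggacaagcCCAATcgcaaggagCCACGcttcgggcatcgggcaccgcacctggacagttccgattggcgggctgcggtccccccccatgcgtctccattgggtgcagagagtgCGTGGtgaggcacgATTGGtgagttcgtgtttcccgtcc
Calr (chr8:84847055-84847113, minus strand): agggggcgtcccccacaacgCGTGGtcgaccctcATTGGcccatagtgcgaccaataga
Canx (chr11:50325780-50325838, minus strand): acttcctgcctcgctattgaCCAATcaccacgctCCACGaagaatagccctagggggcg
Dnajc3 (chr14:118937807-118937865, plus strand): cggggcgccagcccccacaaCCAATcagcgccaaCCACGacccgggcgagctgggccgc
Creld2 (chr15:88819500-88819558, plus strand): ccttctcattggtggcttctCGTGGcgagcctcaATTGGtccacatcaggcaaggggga
Pdia6 (chr12:17266471-17266529, plus strand): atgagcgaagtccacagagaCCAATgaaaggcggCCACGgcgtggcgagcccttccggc
Ero1lb (chr13:12565662-12565720, plus strand): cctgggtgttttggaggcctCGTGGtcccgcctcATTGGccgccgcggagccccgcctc
Herpud1 (chr8:94386357-94386407, plus strand): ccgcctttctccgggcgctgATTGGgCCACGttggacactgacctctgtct
Derl3 (chr10:75893222-75893280, plus strand): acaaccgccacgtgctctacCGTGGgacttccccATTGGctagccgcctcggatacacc
Syvn1 (chr19:6046512-6046570, plus strand): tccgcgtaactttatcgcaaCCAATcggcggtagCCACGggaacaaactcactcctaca
Sec24d (chr3:123267450-123267495, plus strand): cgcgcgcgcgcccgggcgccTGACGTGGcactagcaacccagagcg
Kdelr3 (chr15:79516358-79516405, plus strand): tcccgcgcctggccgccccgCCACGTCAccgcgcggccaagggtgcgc
The stretch of Herpud1 holds an ERSE-II and those of Sec24d and Kdelr3 a UPRE, and the other 10 hold the ERSE, with 2 copies in Hsp90b1. The ERSE of Hspa5 ends 47 bases before the gene's start and that of Syvn1 26 bases before it. The matches in Dnajb11 (ERSE-II) and Sec23a (UPRE) lay after the gene's start.

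Values of a gene on an array are given as multiples of the 75th percentile of that array's background-subtracted signal, and differences between groups as log2 values with the standard error (SE) of the fit and Benjamini-Hochberg adjusted p-values from limma, fitted over all 12 arrays and all tested probes. A gene "rose" or "fell" where the adjusted p was under 0.05, and it was called where the change was in addition over 2-fold. The labels do not say whether replicates were separate cultures, and in their source labels the 3 arrays of Sox7 (+/−) ES cells share a single replicate number, so the p-values measure a spread that may be technical. Replicate 3 of the Sox7 (+/−) XEN-like cells stood apart, with correlations of 0.982 and 0.983 with its group over the tested probes where all other pairs of replicates had 0.993 or more. Sox7 itself was read at 2.18 to 2.29 in Sox7 (+/−) ES cells and at 4.90 to 6.88 in Sox7 (+/−) XEN-like cells, and it was well above background on none of the 6 Sox7 (−/−) arrays. The summed level of 8 pluripotency markers was 254 to 265 in Sox7 (+/−) ES cells and 52.4 to 57.4 in Sox7 (+/−) XEN-like cells, and 510 to 546 and 73.5 to 80.1 in the Sox7 (−/−) cells. In each genotype 7 of the 8 fell and 1 rose. The sum of 8 extraembryonic endoderm markers was 1210 to 1250 in Sox7 (+/−) ES cells and 1940 to 2320 in the XEN-like cells. In Sox7 (−/−) cells it was 1030 to 1110 and 1790 to 1880. Most of the sum was Sparc and Lama1, at 861 to 892 and 291 to 296 in Sox7 (+/−) ES cells, so it says little about the other markers. In each genotype 7 of these 8 rose and none fell. With bulk RNA, a change in the share of cells of a type and a change of RNA per cell cannot be told apart. The number of arrays limits the precision.

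Most of the 58 genes were higher in XEN-like than in ES cells of both genotypes. In Sox7 (+/−) cells, 53 genes (91.4%) rose, none fell and 5 did not pass the test, where 38.5% of all gene names rose and 25.5% fell. In Sox7 (−/−) cells 50 (86.2%) rose and 3 fell, against 34.4% and 31.9% of all names. The median log2 change of the 58 was 1.06 in Sox7 (+/−) and 1.11 in Sox7 (−/−) cells, beside medians of 0.16 and 0.07 over all gene names. At the stricter rule, 33 genes (56.9%) were called higher and 0 lower in Sox7 (+/−) cells, beside 11.0% and 14.1% of all names, and 34 (58.6%) were called higher and 3 lower in Sox7 (−/−) cells, beside 14.6% and 14.1%. Of these, 27 genes were called higher in both, which is 81.8% of the first list and 79.4% of the second. The same overlap over all gene names was not computed, so these shares are not shown to be particular to the 58. Dnajb11, Sdf2l1, Creld2, Creb3l1, Edem2 and Mia3 were called higher in Sox7 (+/−) cells alone, and Ssr4, Lman1, Kdelr1, Mcfd2, Sar1a, Sec63 and Spcs2 in Sox7 (−/−) cells alone. By their second probes Lman1 rose by 1.79 and 2.23 and so was called in both, while Spcs2 changed by 0.11 in Sox7 (−/−) cells and did not pass (adjusted p = 0.41). These 13 genes are not shown to differ between the genotypes by that, since the difference itself has its own test, given further on.

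**Figure D1:**
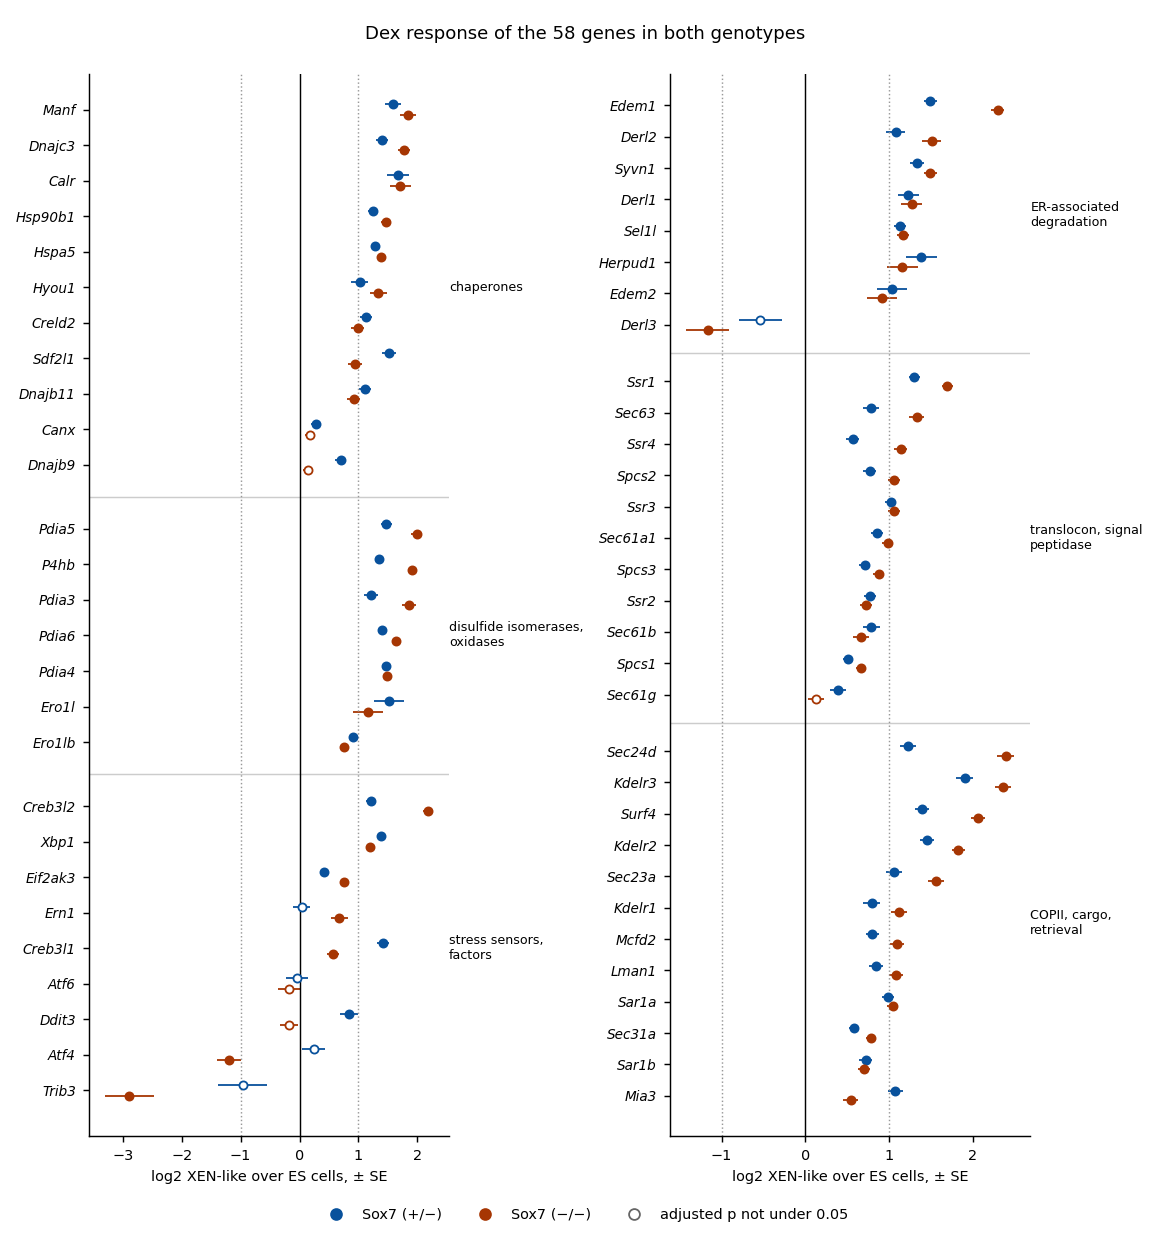
Log2 change from ES to XEN-like cells, with its SE, for each of the 58 genes in Sox7 (+/−) cells (blue) and Sox7 (−/−) cells (brown), grouped by role. Filled points have an adjusted p under 0.05, dotted lines mark a 2-fold change, and nearly all points lie to the right of 0 except those of a few stress factors and Derl3.

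The size of the Sox7 (+/−) response depended on how arrays were scaled. With scaling by the spike-in controls 37 genes rose and 3 fell, with 5 called higher, and without scaling, as in the deposited table, 34 rose and 2 fell, also with 5 called higher. Both settings lowered the median of all tested probes, from 0.16 to −0.34 and −0.23, and the median of the 58 genes moved with it, so that it lay 0.905 above that of all probes in the main setting, 0.906 with spike-in scaling and 0.832 in the deposited table. Canx (−0.21 and −0.16), Eif2ak3 (−0.07 and −0.03) and Sec61g (−0.10 and −0.13) had the opposite sign in these settings. Without replicate 3 of the Sox7 (+/−) XEN-like cells 54 genes rose, 2 fell and 28 were called higher. The Sox7 (−/−) response was called in 34 to 38 genes whichever array was left out. Slide 1 holds the 3 Sox7 (−/−) ES arrays and, of the Sox7 (−/−) XEN-like cells, replicate 1 alone. Between these arrays the median change of the 58 genes was 1.12.

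All 11 chaperones and co-factors rose in Sox7 (+/−) cells (median 1.25) and 9 of 11 rose in Sox7 (−/−) cells (median 1.34). Hspa5, also called BiP, is the Hsp70 chaperone of the ER and the usual readout of ER stress. Its signal was 92.3, 92.8 and 92.1 in the Sox7 (+/−) ES arrays and 217, 223 and 231 in the XEN-like arrays, and 85.7, 91.1 and 88.3 against 225, 237 and 229 in Sox7 (−/−) cells. The ES and XEN-like arrays did not overlap in either genotype, and the changes were 2.42-fold (log2 1.27, SE 0.06, adjusted p = 2.6e-08 from limma) and 2.61-fold (log2 1.38, SE 0.06, adjusted p = 1.1e-08). Hsp90b1, the Hsp90 of the ER, rose by a log2 of 1.25 and 1.46.

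Calr encodes calreticulin, a lectin chaperone of newly glycosylated proteins, read by a probe at chr8:87366192-87366251 (mm9). In Sox7 (+/−) cells it was 26.8, 26.9 and 24.4 in ES cells and 68.6, 69.7 and 120 in XEN-like cells, so replicate 3 lay far above the others. In Sox7 (−/−) cells it was 18.1, 21.3 and 18.7 against 59.2, 67.1 and 64.3. The log2 changes were 1.67 (SE 0.18, adjusted p = 2.3e-05 from limma) and 1.71 (SE 0.18, adjusted p = 1.6e-05). Canx, the membrane-bound relative calnexin, moved least of the chaperones in Sox7 (+/−) cells (log2 0.28, adjusted p = 0.014 from limma) and did not pass the test in Sox7 (−/−) cells (log2 0.18, adjusted p = 0.077).

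Dnajc3, also called P58IPK, is a J-domain co-chaperone of Hspa5 and an inhibitor of the eIF2α kinases, read at chr14:119378131-119378190. It was 2.91, 3.01 and 2.44 in Sox7 (+/−) ES cells and 6.56, 7.22 and 8.33 in the XEN-like cells, and 1.92, 2.01 and 1.96 against 6.30, 6.76 and 7.21 in Sox7 (−/−) cells. All XEN-like arrays were above all ES arrays of their genotype (log2 1.40 and 1.78, SE 0.11 each). Manf, a small secreted factor retained in the ER that stabilises Hspa5 with its clients, was read at chr9:106791278-106791337. It was 10.1, 9.97 and 10.5 in Sox7 (+/−) ES cells against 26.5, 27.7 and 39.7 in XEN-like cells, and 10.2, 10.5 and 9.68 against 37.9, 37.2 and 33.9 in Sox7 (−/−) cells (log2 1.60 and 1.84, SE 0.13 each). The remaining chaperone genes Hyou1, Dnajb11, Sdf2l1 and Creld2 rose by a log2 of 0.92 to 1.53 in both genotypes. Dnajb9, a J-domain co-chaperone also called ERdj4, rose in Sox7 (+/−) cells by 0.70 and changed by 0.15 in Sox7 (−/−) cells (adjusted p = 0.17 from limma), while its second probe gave 0.62 and 0.56 and passed in both.

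The 7 disulfide isomerases and oxidases rose in both genotypes, with medians of 1.40 and 1.64. P4hb, the founding protein disulfide isomerase and the β subunit of collagen prolyl 4-hydroxylase, was read at chr11:120422076-120422135. It was 30.5, 29.6 and 27.0 in Sox7 (+/−) ES cells and 74.6, 72.6 and 74 in XEN-like cells, a 2.54-fold change (log2 1.35, SE 0.07, adjusted p = 5.3e-08 from limma). In Sox7 (−/−) cells it was 27.2, 28.2 and 25.5 against 102, 102 and 101, a 3.76-fold change (log2 1.91, SE 0.07, adjusted p = 3.2e-09). The ES levels of the genotypes overlapped, and the Sox7 (−/−) XEN-like arrays were all above the Sox7 (+/−) ones.

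Pdia5, another thiol isomerase, was read at chr16:35407720-35407779. Its levels were 6.23, 5.88 and 5.45 in Sox7 (+/−) ES cells, 17.2, 17.2 and 14.5 in the XEN-like cells, 6.95, 6.21 and 6.20 in Sox7 (−/−) ES cells and 26.9, 26.3 and 23.7 in the XEN-like cells, which gave log2 changes of 1.47 and 1.99 (SE 0.10 each). Pdia3, which works with the lectin chaperones, rose by 1.22 and 1.86, Pdia4 by 1.46 and 1.48 and Pdia6 by 1.40 and 1.64. The oxidases pass electrons from the isomerases to oxygen. Ero1lb rose by 0.91 and 0.76. Ero1l rose by 1.51 and 1.16, with a wide spread in the Sox7 (+/−) XEN-like cells, where it was 1.63, 1.69 and, in replicate 3, 0.744.

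**Figure D2:**
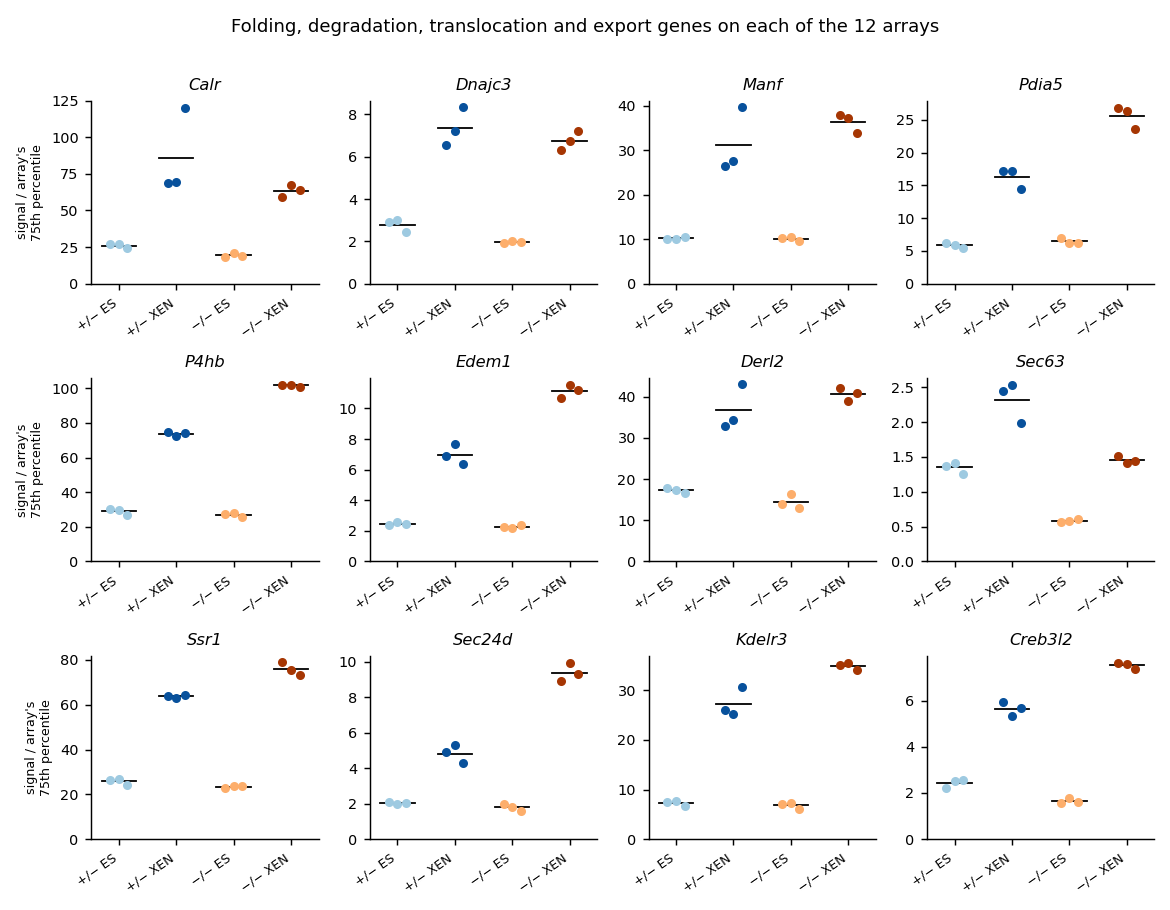
Signal of 12 genes on each of the 12 arrays, as a multiple of the array's 75th percentile, with points for single arrays and a line for the group mean (n = 3). The XEN-like arrays lie above the ES arrays in both genotypes in each panel, and Sec24d, P4hb and Pdia5 are highest in Sox7 (−/−) XEN-like cells.

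The 9 stress sensors and transcription factors did not move as a block. In Sox7 (+/−) cells 5 rose, none fell and 4 did not pass (median 0.42), and in Sox7 (−/−) cells 5 rose, 2 fell and 2 did not pass (median 0.58). The first median was −0.07 with spike-in scaling and −0.03 in the deposited table. Xbp1, the transcription factor whose mRNA is spliced by Ern1, rose in both: it was 33.2, 30.9 and 32.8 against 85.2, 80.3 and 89.0 in Sox7 (+/−) cells and 44.5, 48.3 and 45.3 against 109, 104 and 102 in Sox7 (−/−) cells (log2 1.39 and 1.19, SE 0.07 each). The arrays were not read for the spliced form of its mRNA. Among the sensors, Atf6 passed the test in neither genotype (log2 −0.05 and −0.18), Ern1 in Sox7 (−/−) cells alone (0.04 and 0.68), and Eif2ak3 in both (0.42 and 0.76).

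Atf4, Trib3 and Ddit3 did not rise in both genotypes, unlike Eif2ak3. Atf4, the factor translated when eIF2α is phosphorylated and an activator of amino acid supply and of Ddit3 and Trib3, was read at chr15:80087902-80087961. It was 159, 167 and 148 in Sox7 (+/−) ES cells and 234, 218 and 127 in the XEN-like cells, so replicate 3 was below every ES array and the other 2 above. In Sox7 (−/−) cells it was 192, 241 and 217 in ES cells and 105, 87.8 and 89.5 in XEN-like cells, with no overlap. The log2 change was 0.24 in Sox7 (+/−) cells (SE 0.20, adjusted p = 0.32 from limma), or 0.51 without replicate 3 (adjusted p = 0.003), and −1.20 in Sox7 (−/−) cells (SE 0.20, adjusted p = 3.8e-04). A second probe of Atf4 gave 0.21 and −1.42.

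Trib3, a pseudokinase induced by Atf4 and Ddit3, was read at chr2:152163161-152163220. Its signal was 14.8, 16.6 and 16 in Sox7 (+/−) ES cells and 13.9, 11.5 and 3.33 in XEN-like cells, and 21.3, 26.1 and 22.7 in Sox7 (−/−) ES cells and 3.1, 3.03 and 3.3 in XEN-like cells. Replicate 3 of the Sox7 (+/−) XEN-like cells was thus close to the 3 Sox7 (−/−) XEN-like arrays. The fall in Sox7 (−/−) cells was 7.42-fold (log2 −2.89, SE 0.42, adjusted p = 1.3e-04 from limma). In Sox7 (+/−) cells the log2 difference was −0.96 and did not pass (SE 0.42, adjusted p = 0.067), and it was −0.32 without replicate 3 (adjusted p = 0.028).

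Ddit3, also called Chop, is the pro-apoptotic factor of the same branch, read by a probe spanning chr10:126732518-126732821. It was 1.51, 1.55 and 1.48 against 2.85, 2.86 and 2.43 in Sox7 (+/−) cells, a rise of 1.79-fold (log2 0.84, SE 0.16, adjusted p = 1.0e-03 from limma). In Sox7 (−/−) cells it was 1.60, 2.68 and 1.81 in ES cells and 1.73, 1.75 and 1.75 in XEN-like cells, which overlapped (log2 −0.18, adjusted p = 0.33). With spike-in scaling the rise in Sox7 (+/−) cells was 0.35 (adjusted p = 0.15).

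Creb3l1 and Creb3l2 are ER-anchored factors, cleaved like Atf6, that are known for activating secretory and matrix genes. Creb3l1, read at chr2:91822506-91822565, was 2.52, 2.76 and 2.58 in Sox7 (+/−) ES cells, 7.32, 7.85 and 5.89 in XEN-like cells, 1.65, 1.61 and 1.66 in Sox7 (−/−) ES cells and 2.61, 2.36 and 2.38 in XEN-like cells. It rose in both genotypes (log2 1.41 and 0.58, SE 0.10 each), and the Sox7 (−/−) XEN-like arrays lay below all Sox7 (+/−) XEN-like arrays, at the level of the Sox7 (+/−) ES cells. Creb3l2, read at chr6:37281208-37281267, was 2.23, 2.54 and 2.56 against 5.95, 5.31 and 5.69 in Sox7 (+/−) cells and 1.58, 1.77 and 1.61 against 7.62, 7.58 and 7.36 in Sox7 (−/−) cells (log2 1.21 and 2.19, SE 0.08 each).

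A list of 21 further stress response genes was likewise divided, with 7 higher, 7 lower and a median of 0.09 in Sox7 (+/−) cells, and 8 higher, 9 lower and a median of 0.17 in Sox7 (−/−) cells, and the first median was −0.40 with spike-in scaling and −0.39 in the deposited table. Chac1, Asns, Nupr1 and Eif4ebp1, known as targets of Atf4 and shown because their values were seen to run with Atf4 and Trib3, had their lowest group mean in Sox7 (−/−) XEN-like cells. Asns, asparagine synthetase, was 174, 188 and 173 in Sox7 (+/−) ES cells and 104, 96.6 and 58.5 in XEN-like cells, and 262, 314 and 280 against 75, 72.2 and 67.2 in Sox7 (−/−) cells. It fell in both genotypes (log2 −1.09 and −1.99, adjusted p = 4.5e-04 and 4.4e-06 from limma). Nupr1, a small stress-induced chromatin protein, was 6.79, 8.85 and 7.35 against 2.69, 2.51 and 0.472 in Sox7 (+/−) cells and 20.9, 21.7 and 21.1 against 0.663, 0.468 and 0.522 in Sox7 (−/−) cells. It too fell in both (log2 −2.37 and −5.28), and replicate 3 was again at the level of the Sox7 (−/−) XEN-like arrays. Chac1, a glutathione-degrading enzyme, was 8.90, 10.6 and 9.77 against 8.55, 6.71 and 1.47 in Sox7 (+/−) cells (log2 −1.15, adjusted p = 0.075 from limma) and fell in Sox7 (−/−) cells from 15.1, 20.3 and 16 to 1.51, 1.72 and 1.66 (log2 −3.38, adjusted p = 2.0e-04). Eif4ebp1, an inhibitor of cap-dependent translation, changed by −0.09 in Sox7 (+/−) and fell by 1.78 on the log2 scale in Sox7 (−/−) cells. Atf3 went the other way and rose in both genotypes (1.20 and 1.92). Ppp1r15a, the phosphatase subunit that restores translation, rose in Sox7 (+/−) cells alone by the test (1.01 and 0.21).

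**Figure D3:**
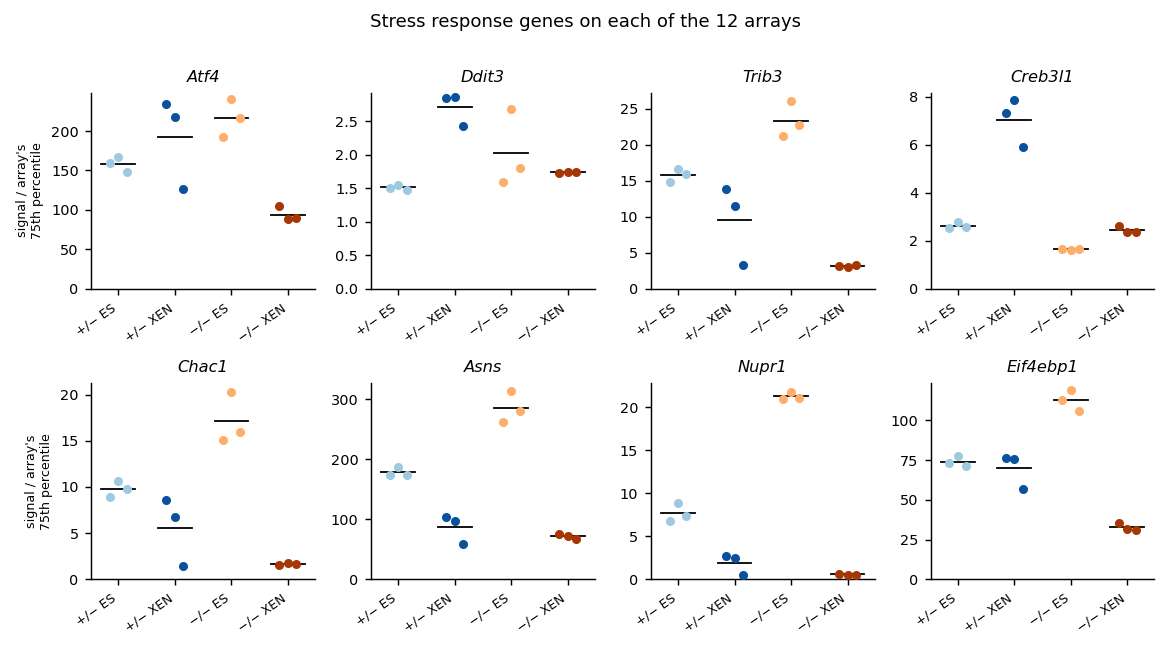
Signal of 4 members (upper row) and 4 further stress response genes (lower row) on each of the 12 arrays, as a multiple of the array's 75th percentile, with points for single arrays in the order of replicates 1 to 3 and a line for the group mean. The third point of the Sox7 (+/−) XEN-like cells is the lowest of its group in every panel, and in Atf4, Trib3, Chac1, Asns, Nupr1 and Eif4ebp1 the mean of the Sox7 (−/−) XEN-like cells is the lowest of the 4 groups.

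Genes of ER-associated degradation rose in 7 of 8 cases in both genotypes (medians 1.18 and 1.22). Edem1, which hands mannose-trimmed proteins to degradation, was read at chr6:108808920-108808979. It was 2.40, 2.60 and 2.42 in Sox7 (+/−) ES cells and 6.86, 7.68 and 6.36 in XEN-like cells, and 2.25, 2.18 and 2.36 against 10.7, 11.5 and 11.2 in Sox7 (−/−) cells. These were changes of 2.81-fold and 4.91-fold (log2 1.49 and 2.30, SE 0.08 each). Derl2, a subunit of the retrotranslocation channel, was read at chr11:70823456-70823515. It was 17.8, 17.4 and 16.6 against 33.0, 34.3 and 43.0 in Sox7 (+/−) cells and 13.9, 16.3 and 13.0 against 42.2, 39.1 and 41.0 in Sox7 (−/−) cells (log2 1.08 and 1.51, SE 0.11 each), and its other 2 tested probes rose by 0.80 and 1.04, and 0.85 and 1.42.

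The ligase Syvn1, also called Hrd1, rose by 1.33 and 1.49 and its partner Sel1l by 1.13 and 1.17. Herpud1, Edem2 and Derl1 rose by 0.91 to 1.38. The spread of Herpud1 was wide in the Sox7 (+/−) XEN-like cells, where it was 14.8, 12.5 and, in replicate 3, 7.78.

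Derl3, whose promoter window holds an ERSE, was the exception. It was 2.38, 2.32 and 2.17 in Sox7 (+/−) ES cells and 1.24, 1.17 and, in replicate 3, 2.73 in XEN-like cells, and 2.82, 2.93 and 2.63 against 1.23, 1.29 and 1.22 in Sox7 (−/−) cells. The difference in Sox7 (+/−) cells did not pass the test (log2 −0.53, SE 0.26, adjusted p = 0.095 from limma) but was −0.93 without replicate 3 (adjusted p = 2.6e-06), and Derl3 fell in Sox7 (−/−) cells (log2 −1.16, SE 0.26, adjusted p = 0.0025).

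Across the 10 genes with an ERSE in the window, 9 rose in Sox7 (+/−) cells and 8 rose and 1 fell in Sox7 (−/−) cells, with medians of 1.26 and 1.42. The 38 genes whose windows held no ERSE had medians of 1.04 and 1.11, with 35 higher in Sox7 (+/−) cells and 33 higher and 2 lower in Sox7 (−/−) cells. Among the 38 were the genes with an ERSE-II or a UPRE, such as Sec24d and Kdelr3. All stress factors, translocon and export genes with a window were also among the 38, so element and role cannot be told apart. The comparison is a description without a test.

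All 11 translocon and signal peptidase genes rose in Sox7 (+/−) cells and 10 of 11 in Sox7 (−/−) cells, by less than the other machinery (medians 0.77 and 0.98), and 2 and 5 were called. With spike-in scaling 4 of the 11 rose in Sox7 (+/−) cells, and 2 in the deposited table. Ssr1, the α subunit of the signal sequence receptor (TRAP) complex beside the channel, was read at chr13:38070087-38070146. It was 26.6, 26.9 and 24.2 against 63.8, 63.1 and 64.5 in Sox7 (+/−) cells and 22.7, 23.8 and 23.9 against 78.9, 75.7 and 73.1 in Sox7 (−/−) cells (log2 1.30 and 1.69, SE 0.07 each). Its other 2 tested probes rose less, by 0.41 and 0.90 in Sox7 (+/−) cells and by 0.40 and 0.35 in Sox7 (−/−) cells, so the size depends on the probe.

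Sec63, the J-domain protein that recruits Hspa5 to the channel, was read by a probe spanning chr10:42543733-42547689. Its level was 1.37, 1.42 and 1.26 in Sox7 (+/−) ES cells, 2.44, 2.53 and 1.99 in XEN-like cells, 0.564, 0.575 and 0.607 in Sox7 (−/−) ES cells and 1.52, 1.42 and 1.44 in XEN-like cells. It rose in both genotypes (log2 0.78 and 1.33, SE 0.10 each), and in either state all Sox7 (−/−) arrays lay below all Sox7 (+/−) arrays. The channel subunits Sec61a1, Sec61b and Sec61g changed by 0.86, 0.79 and 0.39 in Sox7 (+/−) cells and by 0.98, 0.66 and 0.13 in Sox7 (−/−) cells, the last without passing the test (adjusted p = 0.25 from limma). The signal peptidase subunits Spcs1, Spcs2 and Spcs3 rose by 0.51 to 1.06 in both genotypes, and Ssr2, Ssr3 and Ssr4 by 0.57 to 1.14.

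All 12 genes of COPII export, cargo capture and retrieval rose in both genotypes (medians 1.02 and 1.11). Sec24d, a cargo-binding subunit of the COPII coat needed for collagen export, was read at chr3:123068106-123068165. It was 2.12, 2.01 and 2.03 in Sox7 (+/−) ES cells and 4.89, 5.29 and 4.29 in XEN-like cells, a 2.34-fold change (log2 1.23, SE 0.10, adjusted p = 1.9e-06 from limma). In Sox7 (−/−) cells it was 1.98, 1.79 and 1.61 against 8.91, 9.90 and 9.32, a 5.25-fold change (log2 2.39, SE 0.10, adjusted p = 1.0e-08) and the highest rise of the 58 in that genotype.

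Kdelr3, a receptor that returns escaped ER residents with a KDEL tail from the Golgi, was read at chr15:79357588-79357647. It was 7.56, 7.65 and 6.69 against 26.0, 25.3 and 30.6 in Sox7 (+/−) cells, the highest rise of the 58 there (3.73-fold, log2 1.90, SE 0.10, adjusted p = 7.0e-08 from limma), and 7.12, 7.25 and 6.10 against 35.1, 35.4 and 34.1 in Sox7 (−/−) cells (5.13-fold, log2 2.36). The related receptors Kdelr2 and Kdelr1 rose by 1.45 and 1.82, and by 0.79 and 1.12. Surf4, a receptor that speeds soluble cargo out of the ER, rose by 1.40 and 2.07, and the coat subunit Sec23a by 1.06 and 1.56. The coat GTPases Sar1a and Sar1b, the coat subunit Sec31a, the lectin receptor Lman1 and its partner Mcfd2 rose by 0.58 to 1.10 by their brightest probes, and Lman1 by 1.79 and 2.23 by its second. Mia3, also called Tango1, which loads procollagen into COPII carriers, rose by 1.07 and 0.54.

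Further genes of the same pathways moved the same way. Of 32 other ER folding genes 27 rose and 1 fell in Sox7 (+/−) cells (median 1.10), and 28 rose and 2 fell in Sox7 (−/−) cells (median 1.31), among them the collagen chaperone Serpinh1, also called Hsp47 (log2 1.98 and 2.70). Of 17 other degradation genes tested, 14 rose and none fell in either genotype (medians 0.75 and 0.65). Of 26 other translocation and glycosylation genes 23 and 24 rose and none fell (0.77 and 0.87), and of 40 other COPII, COPI and cargo genes tested 34 and 37 rose and 1 fell (0.71 and 0.90), the latter being Klhl12, a ubiquitin ligase adaptor of the COPII coat (−0.62 and −0.58). Of 10 genes of secreted basement membrane cargo, 8 rose and 1 fell in each genotype (1.56 and 1.80), with Col4a1 at 2.44 and 3.14, Nid1 at 3.60 and 3.09, and fibronectin (Fn1) at −2.92 and −4.19. With spike-in scaling the medians in Sox7 (+/−) cells were 0.61, 0.26, 0.28, 0.22 and 1.06 in the order of these lists, and 22, 6, 12, 14 and 6 genes rose.

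**Figure D4:**
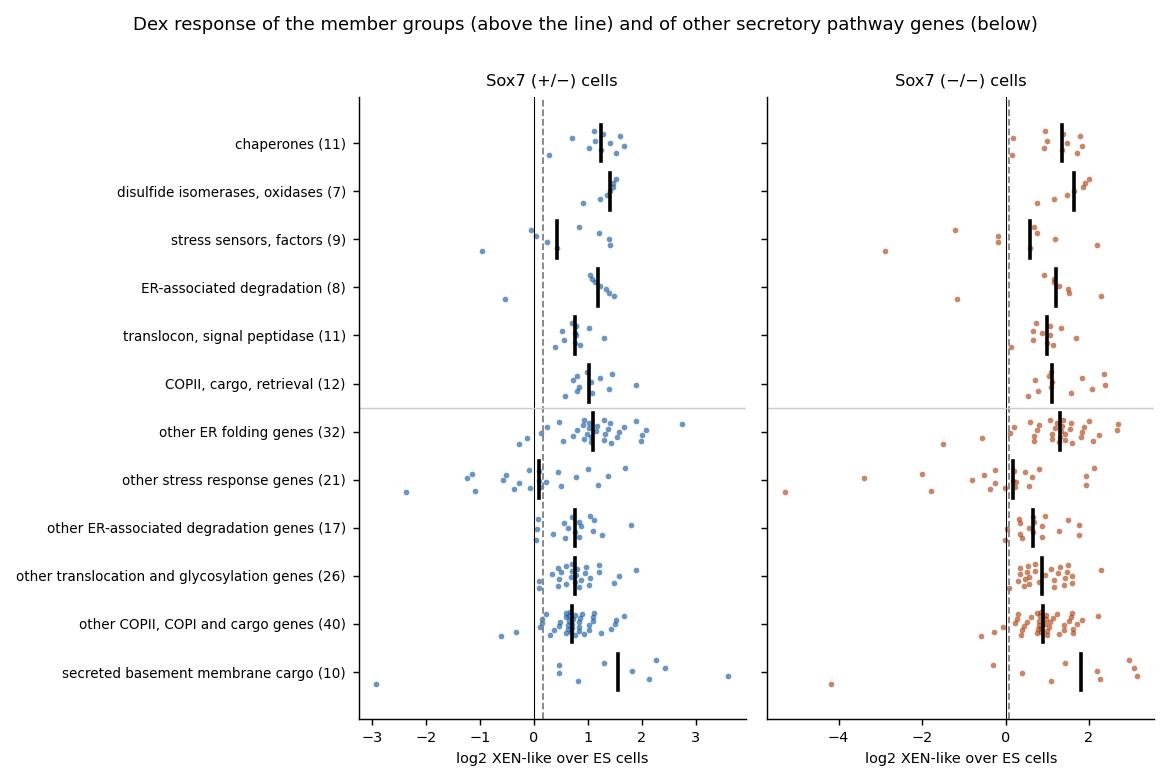
Log2 change from ES to XEN-like cells in Sox7 (+/−) cells (left) and Sox7 (−/−) cells (right) for each member, by role, above the grey line, and for other secretory pathway genes and basement membrane cargo below it. Points are genes, black bars the medians of a list, the dashed line is the median over all 18991 gene names (0.16 and 0.07), and the number of genes is in parentheses. Every list except the stress genes has its median well to the right of the dashed line, and with spike-in scaling the medians of both stress lists in Sox7 (+/−) cells are below 0.

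Between the genotypes the differences were smaller. In XEN-like cells, 20 of the 58 genes (34.5%) were higher and 7 (12.1%) lower in Sox7 (−/−) than in Sox7 (+/−) cells, where 20.2% of all names were higher and 15.1% lower. The median was 0.15 beside 0.01 for all names. In a fit of only the arrays compared 13 were higher and 5 lower, and with the slide as a block 17 and 6. At the 2-fold rule in the main setting 0 genes were called higher and 2 lower, beside 4.15% and 3.40% of all names. The 2 were Creb3l1 (log2 −1.51, SE 0.10, adjusted p = 4.6e-06 from limma) and Trib3 (log2 −1.37, SE 0.42, adjusted p = 0.030). The difference of Trib3 did not pass with the slide as a block (adjusted p = 0.072), nor with any 1 XEN-like array left out (adjusted p = 0.061 to 0.092), except replicate 3 of the Sox7 (+/−) cells, without which it was −2.01 (adjusted p = 2.7e-06). The other 5 lower genes were Atf4 (−0.99), Sar1a (−0.88), Sec63 (−0.66), Ddit3 (−0.63) and Mia3 (−0.37).

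Of the 12 export genes 8 were higher in Sox7 (−/−) XEN-like cells, led by Sec24d (0.96, SE 0.10, adjusted p = 7.0e-05 from limma), Mcfd2 (0.72), Lman1 (0.58) and Sec23a (0.58). The second probe of Lman1 gave 0.08 and did not pass (adjusted p = 0.49). Among the genes of other roles that passed the test, the highest differences were those of Edem1 (0.68), Pdia5 (0.66), Ero1lb (0.63), Eif2ak3 (0.56), P4hb (0.46) and Spcs3 (0.45). None of the 11 chaperones passed the test between the XEN-like cells, and Hspa5 differed by 0.04 (SE 0.06). Without replicate 3 of the Sox7 (+/−) cells 23 genes were higher and 9 lower, among them Manf (0.42, adjusted p = 0.0015 from limma) and, lower, Ero1l (−0.77, adjusted p = 1.9e-04) and Herpud1 (−0.60, adjusted p = 4.4e-04). The summed level of 8 visceral endoderm markers was 45.1 to 64.2 in Sox7 (+/−) and 158 to 174 in Sox7 (−/−) XEN-like cells, with 3 of the 8 well above background on no array in each of these groups. That of 6 parietal endoderm markers, most of it Lamb1 and Col4a1, was 842 to 1040 and 845 to 874, while 3 of the 5 tested were lower in Sox7 (−/−) cells (Snai1 −0.84, Plat −0.56 and Thbd −0.45). That of 6 trophectoderm markers was 2.1 to 2.78 and 5.26 to 6.09, with 4 of the 5 tested called higher (Eomes 1.89, Cdx2 1.72, Hand1 1.33 and Gata3 1.22). The part of these markers in the differences was not tested. In the deposited unscaled table the median of all probes was itself 0.34 higher in Sox7 (−/−) XEN-like cells, and there 41 of the 58 were higher and 4 lower.

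In ES cells 15 genes (25.9%) were higher and 9 (15.5%) lower in Sox7 (−/−) cells, beside 30.1% and 16.5% of all names. The median was 0.02 beside 0.11. Which direction held more genes depended on how arrays were scaled. With quantile scaling 9 were higher and 21 lower, with spike-in scaling 2 and 11, and with median scaling 13 and 12. With normexp they were 16 and 10, and the unscaled deposited values gave 4 higher and 6 lower. At the 2-fold rule in the main setting 0 were higher and 1 lower, beside 1.97% and 6.63% of all names. That gene was Sec63 (log2 −1.21, SE 0.10, adjusted p = 8.5e-06 from limma), whose second probe gave −0.93. Sar1a followed at −0.94, with −1.25 by its second probe, and was also lower in the XEN-like cells. Among the genes that were higher, Lman1 (0.34) and Ssr3 (0.295) were lower by their second probes. These gave −0.35 (adjusted p = 0.0073 from limma) and −0.40 (adjusted p = 0.0019). The second probes of Dnajb9 (0.195) and Spcs3 (−0.10) did not pass, and that of Sec61b did (0.44). All 3 Sox7 (−/−) ES arrays were on slide 1 and all 3 Sox7 (+/−) ES arrays on slide 2, so that slide and genotype could be separated through the Sox7 (−/−) XEN-like arrays alone. With the slide as a block, 6 of the 24 differences passed the test and 18 did not. Ero1lb (0.78) was higher among the 6, and Sec63, Sar1a, Creb3l1 (−0.68), Surf4 (−0.62) and Creb3l2 (−0.56) were lower.

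**Figure D5:**
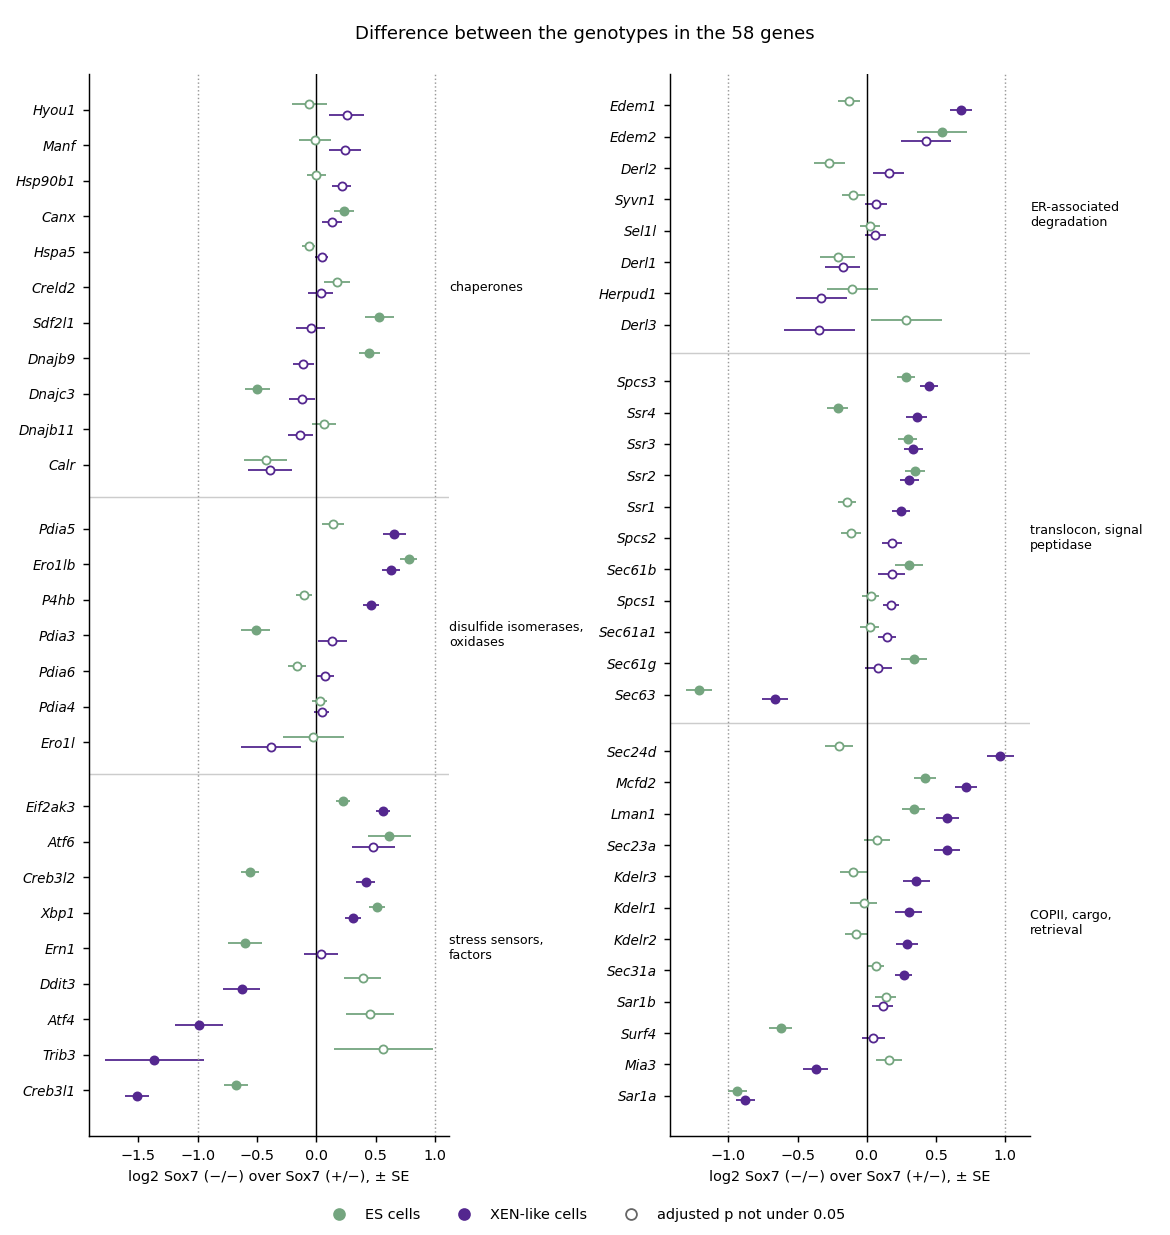
Log2 difference of Sox7 (−/−) over Sox7 (+/−) cells, with its SE, for each of the 58 genes in ES cells (green) and XEN-like cells (purple), grouped by role, with filled points for an adjusted p under 0.05 and dotted lines at a 2-fold difference. Export genes lie mostly to the right of 0 in XEN-like cells, while Sar1a, Sec63 and Creb3l1 lie to the left in both states.

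The Dex response itself differed between the genotypes in 22 of the 58 genes. It was larger in Sox7 (−/−) cells in 15 (25.9%) and smaller in 7 (12.1%), beside 13.1% and 15.7% of all names, and at the 2-fold rule 1 gene was higher and 3 lower, beside 7.05% and 3.16%. These were Sec24d (difference of the log2 changes 1.16, SE 0.14, adjusted p = 2.2e-04 from limma) and, with a smaller change or a fall in Sox7 (−/−) cells, Trib3 (−1.93, SE 0.59, adjusted p = 0.035), Atf4 (−1.44, SE 0.28, adjusted p = 0.0047) and Ddit3 (−1.02, SE 0.22, adjusted p = 0.008). The second probe of Atf4 gave −1.63 (adjusted p = 9.3e-04). Creb3l2 (0.97), Edem1 (0.81), Surf4 (0.67) and Pdia3 (0.65) followed Sec24d. Creb3l1 (−0.83), Sdf2l1 (−0.58), Dnajb9 (−0.55) and Mia3 (−0.53) were the others with a smaller response in Sox7 (−/−) cells. The second probes of Dnajb9 (−0.06) and Mia3 (−0.37) did not pass. By their brightest probes Surf4 and Pdia3 were lower in Sox7 (−/−) ES cells (−0.62 and −0.51), and Sdf2l1 and Dnajb9 higher (0.53 and 0.44). These genes did not pass the test between XEN-like cells. With the slide as a block 13 of the 22 passed, among them Sec24d, Atf4, Ddit3, Creb3l1, Creb3l2 and Edem1, but not Trib3 (−1.95, adjusted p = 0.12). The difference of Trib3 also missed the threshold with any 1 array left out (adjusted p = 0.059 to 0.076), except replicate 3 of the Sox7 (+/−) XEN-like cells, without which it was −2.57 (adjusted p = 3.5e-06). With spike-in scaling, which moved the median of all probes from −0.09 to 0.31, all 7 negative differences no longer passed, with Atf4 at −1.04 (adjusted p = 0.075), Ddit3 at −0.62 (adjusted p = 0.14) and Trib3 at −1.53 (adjusted p = 0.13).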

How the data were processed

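RNA of the 12 samples was hybridised to one-colour Agilent SurePrint G3 Mouse GE 8x60K arrays. The deposited scanner files were made by the authors with Agilent Feature Extraction 10.7.3.1 and hold background-subtracted spot intensity, not normalized between arrays, with probe positions on mm9. The deposited table of intensity values lay within 0.4975% of the mean spot signal and was an alternative. Log2 intensity was centred on each array's 75th percentile, spots of a probe were averaged, and probes were kept where a whole group of 3 arrays read them well above background (25938 of 55681). Differences were fitted with limma 3.58.1 in R 4.3.3 after a check on simulated data. A gene was read by its brightest tested probe. The members and lists were chosen with earlier results of these data known. Values per array are given for the 2 members of each role with the largest Dex response, the one differing most between XEN-like cells, and members called between genotypes or in the difference of response, with a few others for context, chosen after their values were seen. Alternatives covered background correction, scaling, filters, blocks, single arrays and probe averaging.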

Additional observations from a re-analysis of the deposited data

Results flagged for a closer look

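The Dex response differed between Sox7 (−/−) and Sox7 (+/−) cells by limma's interaction term (adjusted p under 0.05) in 22 of the 58 genes. It was larger in Sox7 (−/−) cells in 25.9% and smaller in 12.1% of the 58, beside 13.1% and 15.7% of all names. With the slide as a block 13 of the 22 passed, and with spike-in scaling none of the 7 smaller responses did. The values here are differences of log2 changes, Sox7 (−/−) minus Sox7 (+/−). The response was smaller, or turned into a fall, in Sox7 (−/−) cells for Trib3 (−1.93), Atf4 (−1.44), Ddit3 (−1.02), Creb3l1 (−0.83), Sdf2l1 (−0.58), Dnajb9 (−0.55) and Mia3 (−0.53). It was larger among export and retrieval genes for Sec24d (1.16), Surf4 (0.67), Sec23a (0.51), Kdelr3 (0.46) and Kdelr2 (0.37). Among isomerases it was larger for Pdia3 (0.65), P4hb (0.57) and Pdia5 (0.52), and among translocon genes for Ssr4 (0.57), Sec63 (0.55) and Ssr1 (0.39). The others were Creb3l2 (0.97), Edem1 (0.81), Ern1 (0.64) and Eif2ak3 (0.33). The second probe of Dnajb9 gave −0.06, and the other 2 of Ssr1 gave −0.01 and −0.55, so these 2 genes differ by probe. The second probes of Sec63 (0.475) and Mia3 (−0.37) kept the sign but did not pass (adjusted p = 0.22 and 0.21 from limma). Among the flagged genes with a second tested probe, only that of Atf4 passed as well (−1.63). A larger response was not always a higher level in XEN-like cells. Surf4 (−0.62), Pdia3 (−0.51) and Ern1 (−0.605) were lower in Sox7 (−/−) ES cells and did not pass between XEN-like cells. Sec63 was lower in both states. Sdf2l1 (0.53) and Dnajb9 (0.44) were higher in Sox7 (−/−) ES cells and did not pass between XEN-like cells. Sec24d, Edem1, Pdia5 and P4hb were higher in Sox7 (−/−) XEN-like cells and did not pass between ES cells.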

How the results depend on the processing

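The direction of the Dex responses that passed the test was the same under every alternative run except for 3 genes in Sox7 (+/−) cells, where Canx was −0.21 with spike-in scaling and −0.16 in the deposited table, Eif2ak3 −0.07 and −0.03, and Sec61g −0.10 and −0.13. Between genotypes, Mia3 in XEN-like cells was 0.04 in the deposited table, and with the mean of all tested probes Ssr3 (−0.05) and Lman1 (−0.01) in ES cells and Ssr1 in the difference of response (−0.06) turned sign. Of 4349 values of 179 differences that passed at an adjusted p under 0.05, 4091 kept the direction and still passed. A further 248 no longer passed and 10 turned sign. The 2-fold rule was not part of this count, and the cause was not tested.

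In Sox7 (+/−) cells, 33 members were called higher, 5 with spike-in scaling, 5 in the deposited table, 53 without the 2-fold minimum and 28 to 33 with 1 array left out. None was called lower, against 1 with normexp, quantile or median scaling and in the deposited table, 2 with spike-in scaling and 0 to 1 with 1 array left out. The median of 1.06 was 0.96 with normexp, 0.93 with quantile, 0.96 with median and 0.57 with spike-in scaling, 0.60 in the deposited table, 1.03 with the mean of probes and 0.99 to 1.11 with 1 array left out. In Sox7 (−/−) cells the median of 1.11 was 1.05, 1.03, 0.99 and 1.02 under the same 4 settings, 1.03 in the deposited table and 1.07 to 1.13 with 1 array left out.

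Between XEN-like cells, 0 members were called higher (1 with normexp, 1 with spike-in scaling, 4 in the deposited table, 20 without the 2-fold minimum, 0 to 1 with 1 array left out) and 2 lower (1 with spike-in scaling, 0 in the deposited table, 1 with only the arrays compared, 7 without the minimum, 1 to 3 with 1 array left out). The median of 0.15 was 0.23 with normexp, 0.08 with median scaling, 0.40 with spike-in scaling and 0.57 in the deposited table. Between ES cells, 0 were higher (15 without the minimum) and 1 lower (0 with normexp, 2 with quantile or spike-in scaling or the mean of probes, 9 without the minimum), and the median of 0.02 was −0.10 with quantile, −0.04 with median and −0.13 with spike-in scaling. In the difference of response, 1 was higher (6 with spike-in scaling, 8 in the deposited table, 15 without the minimum, 1 to 2 with 1 array left out) and 3 lower (0, 1, 7 and 1 to 3), and the median of 0.14 was 0.18 with normexp, 0.27 with quantile and 0.54 with spike-in scaling and 0.53 in the deposited table.

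Samples with the same replicate number did not deviate together (r −0.0514 to 0.126 over 18 pairs), so the numbers were not taken as pairs. With a replicate block, 33 members were called higher in Sox7 (+/−) and 34 in Sox7 (−/−) cells, and 4 of the 179 differences no longer passed the test. With the slide block 31 of them no longer passed, none of them a Dex response. All Sox7 (+/−) arrays were on slide 2, so the block could not change the size of the Dex response in these cells. The values within slide 1 were chosen after seeing the data. Signal over background set no limit for the members, which were above it on every array; the number of arrays does.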
